A study of Eleocharis dulcis with 24 samples.

Results

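Corms of cultivated and of wild *Eleocharis dulcis* (Chinese water chestnut, a sedge whose swollen underground stem is eaten) were compared at the initial swelling stage, the first of the 4 stages profiled by RNA sequencing. Each origin gave 3 libraries at this stage, which the series design calls biological replicates, so the compared means rest on 6 of 24 libraries. The values were TPM, transcript abundances per length that are scaled to the same total in each library. A gene was taken where 3 or more of these 6 libraries reached 1 TPM, which gave 25559 of 35975 rows, all of them among the 27050 genes tested over the whole series. The labels name the tissue as corm and the plants only as cultivated or wild. No line, growing site, plant age, treatment or sampling batch is given, and none of these can be told apart from origin. Each group has 3 libraries, and the limma p-values measure the spread among replicates only. That spread was estimated per gene over all 8 groups of the 24 libraries, later stages included.

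A corm is a short stem that becomes a storage organ. In the water chestnut it forms at the tip of an underground stolon, where growth in length gives way to growth in width. Swelling of such organs is known to begin with cell division and cell expansion, fed by sucrose that arrives through the phloem, and starch is laid down as the organ fills. Cultivated plants are grown for large, sweet corms. The table gives gene IDs without names, so genes are described here by ID and level and no function is assigned to any of them. No marker gene of the corm could be looked up for the same reason, and the tissue label was not checked. In whole corms fewer cells of a type and less RNA per cell cannot be told apart.

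Libraries of one origin lay close together and the origins lay apart. Across the 25559 genes, Spearman correlations ran from 0.992 to 0.994 within an origin and from 0.701 to 0.710 between origins. The median SD of log2(TPM + 1) among replicates was 0.0998 in cultivated and 0.0760 in wild corms. Library totals lay between 999991 and 1000002 TPM over the series, which leaves the depth unknown and allows no counting interval. Cultivated replicate 3 stood apart from its 2 partners in a group of abundant genes that is described further on, and results that rest on it are given with and without it.

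A large share of the expressed genes differed at least 2-fold between the origins at the onset of swelling, in both directions in similar numbers. By limma on log2(TPM + 1), with a Benjamini-Hochberg (BH) adjusted p under 0.05, 5645 of the 25559 genes were at least 2-fold higher in cultivated corms and 5390 at least 2-fold lower, which is 11035 genes or 43.2%. Over all 27050 genes tested the shares were 21.1% higher and 20.2% lower, 41.3% in all. Differences of at least 4-fold were fewer and leaned to wild corms, with 1326 genes higher and 2028 lower in cultivated corms, against 5.03% and 7.52% of all genes tested. At least 16-fold, 129 genes were higher and 310 lower (0.477% and 1.15% of all tested). A further 11336 genes passed the test with less than a 2-fold difference, so that 22371 genes passed it in all (86.3% of all genes tested did) and 3188 did not. The median SE of the log2 difference was 0.08, so differences well under 2-fold could pass.

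The balance of higher and lower genes depended on the scaling. TPM values share a fixed total, and the median log2 difference was 0.14 in cultivated minus wild corms as deposited. After median-of-ratios scaling, which sets the typical gene equal across libraries, it was -0.069. The counts of genes at least 2-fold different then became 4023 higher and 6177 lower in cultivated corms, so that 39.4% of these calls were higher, against 51.2% as deposited. Differences in the text are as deposited, and small ones can change sign with the scaling. The shift was about 0.2 on the log2 scale for the median gene and larger for some genes. EdulChr34G00135090, for example, went from 3.12 as deposited to 2.88 after scaling.

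**Figure D1:**
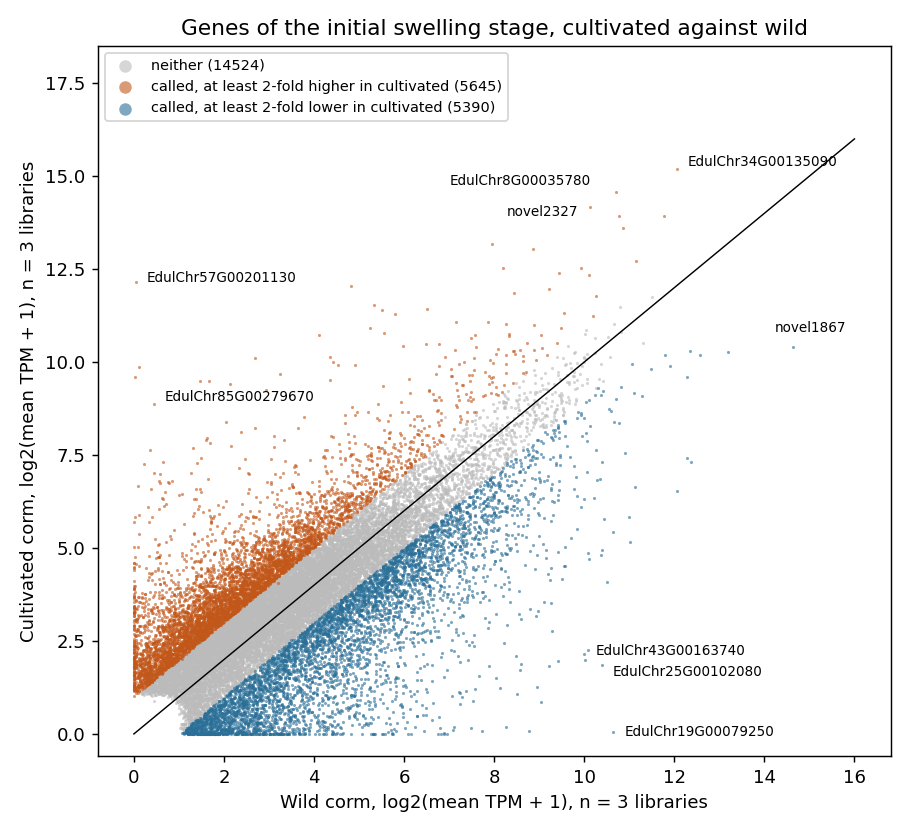
Mean level of each of the 25559 genes in wild (x axis) and cultivated (y axis) corms at initial swelling, as log2(mean TPM + 1) over 3 libraries each, with the diagonal of equal level. Orange points are the 5645 genes called at least 2-fold higher in cultivated corms, blue points the 5390 called lower and grey points the other 14524.

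Every one of the 6 libraries reached 1 TPM for 20753 of these genes. Another 1688 did so in all 3 cultivated and in no wild library, and 1630 in all 3 wild and in no cultivated library. These last 2 sets entered through one origin alone and had to differ. Among the 20753 genes present in all 6 libraries, 4109 were at least 2-fold higher in cultivated corms and 3695 lower, which is 37.6% of them.

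The genes at least 2-fold higher in cultivated corms together held 44.3, 44.1 and 49.8% of all TPM in the 3 cultivated libraries, against 8.78, 8.70 and 8.48% in the 3 wild ones. The genes at least 2-fold lower held 10.4, 10.4 and 9.27% in cultivated and 46.3, 46.5 and 46.7% in wild libraries. The 14524 genes that met neither rule held 43.7 ± 2.62% and 44.6 ± 0.0990% (SD, n = 3 each). The sets were chosen on these libraries, so the shares describe how much of the RNA the differences involve and test nothing.

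The 5 most abundant transcripts of each origin were different genes. EdulChr34G00135090 led in cultivated corms, with 38799.5, 37886 and 34641 TPM in the 3 cultivated libraries and 4372, 4208 and 4183 TPM in the 3 wild ones. Every cultivated library was far above every wild one, and the means differed 8.72-fold, a log2 difference of 3.12 ± 0.05 (SE, limma BH-adjusted p = 8.57e-22). The second, EdulChr8G00035780, stood at 25993, 24809 and 22349 TPM in cultivated and 1662, 1648 and 1667 TPM in wild libraries. Its log2 difference was 3.87 ± 0.06 (SE, limma BH-adjusted p = 1.52e-22), with no overlap of the groups. Both were steady among replicates.

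The next 3 in cultivated corms carried IDs without the EdulChr prefix, and all 3 were highest in cultivated replicate 3. The feature novel2327 had 14508, 14363 and 26540.3 TPM in cultivated and 947, 1269.7 and 1135 TPM in wild libraries. The feature novel3419 had 12064, 12584 and 22367 TPM against 2092, 1948 and 1185 TPM. The feature novel3652 had 12383, 11941 and 22245 TPM against 3741, 3856 and 2892 TPM. In each the groups did not overlap. The log2 differences of the first 2 were 3.99 ± 0.25 (SE, limma BH-adjusted p = 4.15e-12) and 3.15 ± 0.30 (SE, limma BH-adjusted p = 3.78e-09), and the means of novel3652 differed 4.44-fold (limma BH-adjusted p = 1.97e-07).

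In wild corms the leading feature was novel1867, with 24209.7, 25837 and 26515 TPM in wild and 1401, 1421 and 1261 TPM in cultivated libraries. It was 18.8-fold higher in wild corms by the means, with a log2 difference, cultivated minus wild, of -4.23 ± 0.07 (SE, limma BH-adjusted p = 2.66e-21). EdulChr93G00296730 followed with 9099, 9433 and 9557 TPM in wild and 1269, 1287 and 1167 TPM in cultivated libraries, a log2 difference of -2.92 ± 0.05 (SE, limma BH-adjusted p = 8.39e-21). Both were well expressed in each origin, and the wild libraries were uniformly the higher ones.

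EdulChr67G00227860 had 6094, 6030.3 and 6042 TPM in wild and 1224, 1212 and 1053 TPM in cultivated libraries, with a log2 difference of -2.38 ± 0.12 (SE, limma BH-adjusted p = 7.20e-14). The feature novel1789 had 4633, 5311 and 5917 TPM in wild and 164, 165 and 143 TPM in cultivated libraries, with a log2 difference of -5.06 ± 0.09 (SE, limma BH-adjusted p = 6.19e-21). EdulChr74G00248370 had 4733, 5716 and 5209 TPM in wild and 1247, 1369 and 1123 TPM in cultivated libraries, with a log2 difference of -2.07 ± 0.08 (SE, limma BH-adjusted p = 1.04e-15). In all 3 the origins were separated in every library, most widely in novel1789.

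The RNA of cultivated corms was concentrated in fewer genes. The 10 highest genes held 14.2, 13.8 and 18.7% of TPM in the cultivated libraries and 7.12, 7.46 and 7.57% in the wild ones. No library overlapped between origins, and the exact two-sided permutation p for the difference of 8.17 percentage points was 0.1, the smallest that 3 against 3 libraries allow. With the 32 genes high in cultivated replicate 3 removed from every library the difference was 4.10 percentage points, in the same direction and again without overlap (exact permutation p = 0.1). The number of genes at a TPM of at least 1 overlapped between the origins, with 23863, 23957 and 23710 in cultivated and 23631, 23760 and 23771 in wild libraries (difference 123, exact permutation p = 0.3). At a minimum of 0.1 TPM wild corms had more genes, 28416 ± 44.5 against 27949 ± 75.7 (SD, n = 3). At 5 TPM cultivated corms had more, 16859 ± 331 against 15785 ± 80.0 (SD, n = 3). Neither set of libraries overlapped, and each exact permutation p was 0.1.

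Of the 8 genes with the largest differences toward cultivated corms, 6 had means of a few TPM or less in wild corms, and EdulChr2G00009750 and EdulChr2G00009710 had more. EdulChr57G00201130 stood at 3206, 3107 and 7268 TPM in the cultivated libraries and at 0.06, 0.02 and 0 TPM in the wild ones. The groups were apart by orders of magnitude, although cultivated replicate 3 was over 2 times its partners. The log2 difference was 11.99 ± 1.35 (SE, limma BH-adjusted p = 5.62e-08). With the wild level near 0, that figure is set largely by the pseudocount of 1 and is not a fold.

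EdulChr85G00279670 and EdulChr23G00094560 had smaller differences and much tighter replicates. EdulChr85G00279670 had 484, 471 and 442 TPM in cultivated and 0.59, 0.25 and 0.26 TPM in wild libraries, a log2 difference of 8.42 ± 0.07 (SE, limma BH-adjusted p = 1.37e-25). EdulChr23G00094560 had 732, 743 and 674 TPM in cultivated and 2.21, 2.16 and 2.18 TPM in wild libraries, a log2 difference of 7.81 ± 0.04 (SE, limma BH-adjusted p = 1.18e-29). The groups did not overlap in either gene.

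The other 5 of the 8 largest differences toward cultivated corms carried the prefix EdulChr2 and varied widely among replicates. EdulChr2G00010280 had 933, 442 and 1434 TPM in cultivated and 0.26, 0 and 0 TPM in wild libraries. EdulChr2G00010320 had 226, 224 and 1865 TPM against 0.04, 0 and 0 TPM. The mean of EdulChr2G00010320 rests on 1 library, replicate 3, which was about 8 times its partners. EdulChr2G00010520 had 549, 813 and 781 TPM against 5.25, 0 and 0 TPM, and here replicate 3 did not stand out.

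EdulChr2G00009750 had 2804, 2596 and 7299 TPM in cultivated and 61.1, 14.9 and 5.23 TPM in wild libraries. EdulChr2G00009710 had 2348, 1153 and 5364 TPM against 91.6, 26.5 and 0 TPM. The cultivated libraries were above the wild ones in all 5 genes, and among the wild libraries replicate 1 was the highest in each. Their log2 differences lay between 7.48 (SE 1.55) for EdulChr2G00009710 and 9.60 (SE 1.73) for EdulChr2G00010280. The limma adjusted p ranged from 2.66e-07 for EdulChr2G00009750 to 0.000156 for EdulChr2G00009710, and all 5 still passed with any 1 of the 6 libraries left out. The value of EdulChr2G00009710 ranged from 5.596 without wild replicate 3 to 8.86 without wild replicate 1, and that of EdulChr2G00010320 was 7.80 without cultivated replicate 3.

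The 8 largest differences toward wild corms were in genes with high levels in every wild library. EdulChr19G00079250 had 1657, 1657 and 1490.5 TPM in the wild libraries and 0, 0 and 0.11 TPM in the cultivated ones. EdulChr23G00093850 had 442, 430.3 and 437 TPM in wild and 0.08, 0.08 and 0 TPM in cultivated libraries. EdulChr86G00281820 had 280.5, 319.7 and 319.8 TPM in wild and 0.13, 0.25 and 0.06 TPM in cultivated libraries. These 3 were strongly expressed in every wild library and at or close to 0 in every cultivated one, so no fold is given, and their log2 differences were -10.59 ± 0.13 (SE, limma BH-adjusted p = 1.28e-23), -8.70 ± 0.10 (SE, limma BH-adjusted p = 3.37e-24) and -8.07 ± 0.07 (SE, limma BH-adjusted p = 2.30e-25).

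Another 5 genes kept a measurable level in most cultivated libraries. EdulChr25G00102080 had 1368, 1345 and 1315 TPM in wild and 2.70, 2.62 and 2.44 TPM in cultivated libraries, 519-fold by the means, with a log2 difference of -8.55 ± 0.04 (SE, limma BH-adjusted p = 1.18e-29). EdulChr43G00163740 had 1088, 993 and 1037 TPM against 3.07, 3.13 and 2.61 TPM, 354-fold by the means, with a log2 difference of -8.05 ± 0.08 (SE, limma BH-adjusted p = 3.90e-25). EdulChr66G00225550 had 1037, 1081 and 1147 TPM against 2.07, 4.78 and 4.62 TPM, with a log2 difference of -7.87 ± 0.17 (SE, limma BH-adjusted p = 6.80e-20). In these 3 each cultivated library was present at a few TPM.

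EdulChr21G00085600 had 484, 592 and 489 TPM in wild and 0.78, 0.85 and 0.85 TPM in cultivated libraries, with a log2 difference of -8.15 ± 0.18 (SE, limma BH-adjusted p = 1.79e-19). EdulChr14G00061010 had 1102, 937 and 1007 TPM against 4.18, 0 and 6.02 TPM, with a log2 difference of -8.26 ± 0.68 (SE, limma BH-adjusted p = 3.77e-10). EdulChr14G00061010 had the widest error of the 8, with 1 cultivated library listed at 0, and the groups did not overlap in either gene.

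**Figure D2:**
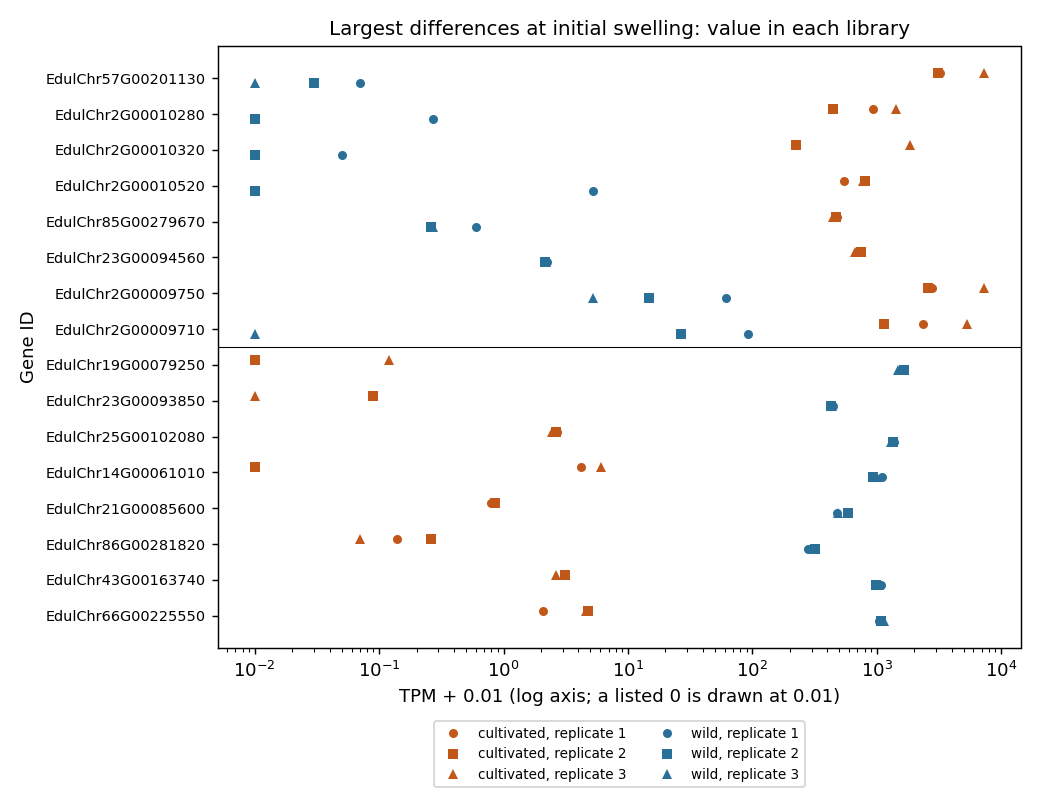
TPM of the 8 genes with the largest differences toward cultivated corms (top) and the 8 toward wild corms (bottom) in each of the 6 initial libraries, on a log axis with 0.01 added. Symbols mark the replicate and colours the origin: the groups do not overlap in any of the 16 genes, and cultivated replicate 3 lies to the right of its partners in 5 of the top 8.

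Cultivated replicate 3 stood above both partners in a set of abundant genes. A gene was counted where its TPM + 1 was over 1.6 times the mean of the other 2 libraries of the group, and where 1 library of the group was over 100 TPM. By this rule, chosen after the values were seen, 32 genes were high in cultivated replicate 3, against 2 and 0 in cultivated replicates 1 and 2 and 1 in each wild library. The 32 genes together took 8.91 and 8.58% of TPM in cultivated replicates 1 and 2 and 17.2% in replicate 3. In the wild initial libraries they took 0.877 to 1.14%. The set as a whole was thus above its wild share in all 3 cultivated libraries, and 30 of the 32 genes were called at least 2-fold higher in cultivated corms both with and without replicate 3. The other 2 overlapped with wild corms: novel875 had 284, 27.2 and 789 TPM in cultivated and 118, 202 and 34.3 TPM in wild libraries, and novel2325 had 0, 0 and 196 TPM against 62.0, 16.3 and 0 TPM. Since the rule used the cultivated libraries, this count describes the set and is not a test.

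The set included 3 of the 5 most abundant transcripts of cultivated corms (novel2327, novel3419 and novel3652). Of the 32, 11 had IDs without the EdulChr prefix, 8 had the prefix EdulChr2 and 3 each EdulChr5 and EdulChr20. Some had neighbouring IDs: EdulChr20G00081080, EdulChr20G00081090 and EdulChr20G00081100 stood at 82.0, 94.5 and 209.8, at 1751, 2324 and 4041 and at 695, 786 and 1581 TPM in cultivated replicates 1, 2 and 3. In the wild libraries the same 3 genes had 3.71, 5.98 and 4.61, then 40.7, 61.1 and 32.6 and then 16.9, 23.4 and 21.0 TPM. The rise in replicate 3 was close to 2-fold in each, as in the set as a whole, where the median ratio of replicate 3 to the mean of its partners was 2.03.

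The ID stretches that hold part of this set also hold rows that cannot be told apart from each other. Among the 27050 genes tested, 33 rows had exactly the same value in each of the 24 libraries, at 0, 11.13 and 14.37 TPM in cultivated replicates 1, 2 and 3 and 0 in the 3 wild initial libraries. They carried the prefixes EdulChr57 (18 rows), EdulChr83 (8), EdulChr2 (5) and EdulChr5 (2). None of them met the rule for the 25559 genes. Over all genes tested, 70 rows fell into 18 such sets of identical rows. How reads from near-identical copies were divided among rows is not given in the sources used here, so levels of single genes in or next to these stretches, EdulChr57G00201130 and the EdulChr2 genes above included, are uncertain.

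**Figure D3:**
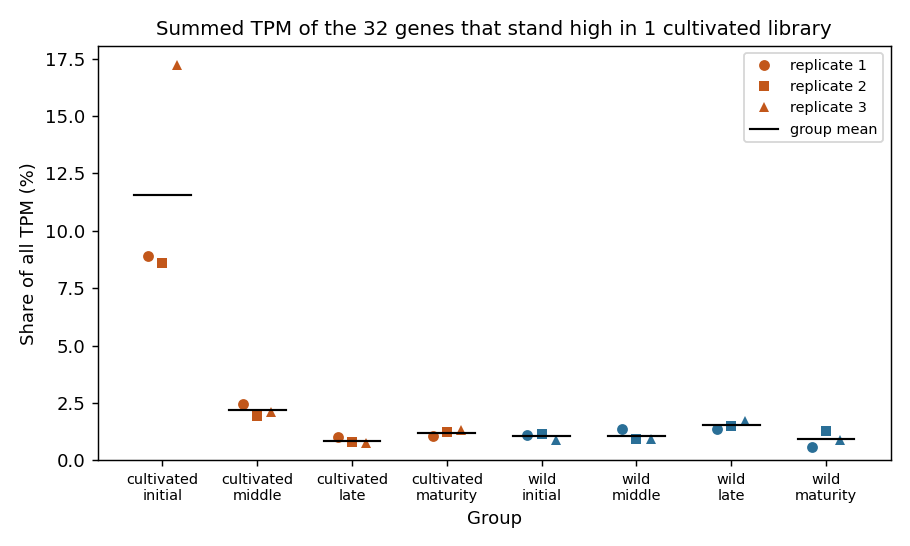
Share of all TPM taken by the 32 genes that stood high in cultivated replicate 3, in each of the 24 libraries by origin and stage (points are libraries, bars group means). The cultivated initial libraries, on which the set was chosen, lie at 8.58 to 17.2%, above every other library, and cultivated replicate 3 is the highest.

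After the initial stage this set was no longer large in cultivated corms. It was chosen on high values in the cultivated initial libraries, so a lower share in other libraries can come in part from the choice. It took 2.18 ± 0.266% of TPM at middle, 0.852 ± 0.156% at late swelling and 1.21 ± 0.122% at maturity in cultivated corms, against 1.07 ± 0.244, 1.53 ± 0.175 and 0.915 ± 0.343% in wild corms (SD, n = 3). At middle swelling 14 of the 32 were called at least 2-fold higher and 3 lower in cultivated corms, and at late swelling 5 higher and 12 lower. At maturity 9 were higher and 1 lower. Over all genes tested the shares were 17.2% higher and 37.9% lower at middle, 31.9% and 22.3% at late swelling and 27.7% and 12.2% at maturity.

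A number of genes were listed at 0 in one origin. In 108 rows all 3 wild libraries were at 0 and each cultivated library reached 1 TPM, and 198 had the reverse pattern, which is 0.3% and 0.55% of the 35975 rows. Most were weak in the other origin, with a median of 3.58 TPM in cultivated and 4.09 TPM in wild corms, and 17 and 37 of them reached a mean of 10 TPM. The strongest that were absent from the wild libraries were EdulChr29G00116390, with 54.0, 51.6 and 48.4 TPM in cultivated libraries, novel776, with 22.6, 24.9 and 22.1 TPM, and EdulChr27G00109610, with 16.1, 17.2 and 35.6 TPM. The first 2 were even across replicates, and EdulChr27G00109610 was about 2 times higher in replicate 3.

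The strongest of those listed at 0 in cultivated libraries were novel2799, EdulChr83G00271180 and EdulChr85G00278380. They had 119, 129 and 118, then 109, 121 and 124 and then 109.6, 110.2 and 116 TPM in the wild libraries. EdulChr83G00271180 and EdulChr85G00278380 were also listed at 0 in each of the 9 later cultivated libraries. Of the 198 rows, 151 were at 0 in all 9 later cultivated libraries as well, and 11 reached 1 TPM in at least 1 of them. Of the 108 rows at 0 in wild corms, 47 stayed at 0 in all 9 later wild libraries and 16 reached 1 TPM. The EdulChr prefix was lacking in 49 of the 108 IDs (45.4%) and in 59 of the 198 (29.8%), against 7.12% of the 35975 rows. Why these rows were at 0 in one origin was not tested.

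Some abundant genes stood at the same level in both origins. EdulChr16G00071610 had 145, 145 and 137 TPM in cultivated and 146, 144 and 136 TPM in wild libraries, a log2 difference of 0.00 with a 95% interval of -0.08 to 0.09. EdulChr62G00215560 had 132, 134 and 118 TPM against 128, 129 and 127 TPM, with an interval of -0.09 to 0.09. EdulChr78G00262660 had 169, 162 and 155 TPM against 169.9, 150.2 and 164 TPM, with an interval of -0.09 to 0.10. The libraries of both origins overlapped in all 3. These are equal shares of the total. After median-of-ratios scaling all 3 were lower in cultivated corms, by -0.24 on the log2 scale each (limma adjusted p = 1.51e-05, 1.50e-06 and 4.81e-05). Among the 947 genes at a mean of at least 100 TPM in each origin, 592 had a 95% interval inside 2-fold and 288 were called at least 2-fold different, 120 of them higher in cultivated corms. Over all 25559 genes, 46.4% had an interval inside 2-fold.

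The direction of the differences varied with the level of the gene. Of 9401 genes at a mean of 5 to 20 TPM over the 6 libraries, 2343 were at least 2-fold higher and 1610 lower in cultivated corms. Of 1614 genes at 100 to 1000 TPM, 269 were higher and 557 lower. The median log2 difference went from 0.34 at 1 to 5 TPM through 0.25 at 5 to 20 and -0.20 at 20 to 100 to -0.43 at 100 to 1000 TPM. In the 75 genes at 1000 TPM and above it was 0.46, with 32 higher and 21 lower. After scaling the same 5 medians were 0.16, 0.027, -0.44, -0.68 and 0.22, and the counts at 5 to 20 TPM turned to 1696 higher and 1921 lower. Under both scalings the genes at 20 to 1000 TPM leaned to wild corms. Of the 75 most abundant genes, 15 belong to the set high in cultivated replicate 3. Without them 17 of the other 60 were higher and 21 lower in cultivated corms (15 and 24 after scaling). The set was chosen on high values in a cultivated library, and no like set of wild corms was taken out. Its removal could therefore be expected to weaken the lean of that class to cultivated corms and does not test it. The share called at least 2-fold different was between 42.0 and 43.7% below 100 TPM, near the 41.3% of all genes tested. It was 51.2% and 70.7% in the 2 highest classes. These classes use the mean of both origins, so a gene can enter a high class through 1 origin alone, which favours a call. Among the 947 genes of at least 100 TPM in each origin, 288 were called, a smaller share than in either class. That rule in turn leaves out genes low in 1 origin, so whether abundant genes differ more often was not settled.

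The IDs carry a number after EdulChr, and genes of 1 number stood apart from all others. A total of 111 such numbers were present, of which 110 held at least 100 of the 25559 genes. Genes with the prefix EdulChr47 had a median log2 difference of -0.89, cultivated minus wild. The medians of the other 109 prefixes lay between -0.27 (EdulChr105) and 0.48 (EdulChr110), with a median of 0.11. Of the 182 genes with this prefix, 79 were at least 2-fold lower and 9 at least 2-fold higher in cultivated corms, which is 43.4% and 4.95%, against 20.2% and 21.1% of all genes tested. The lowest share of higher genes and the highest share of lower genes over the 110 prefixes were both found here. On the linear scale the median corresponds to a cultivated level of 0.541 of the wild one.

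The shift of EdulChr47 was spread over its genes. A lower mean in cultivated corms was found in 145 of 182 genes (79.7%), against 45.6% of all 25559 genes, and the quartiles of the log2 difference were -1.56 and -0.14. Divided in ID order into 9 blocks of 20 or 21 genes, every block had a negative median, from -1.17 to -0.54. The 58 genes at a mean of at least 20 TPM had a median of -0.94, against -0.25 for all genes at that level.

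Of the EdulChr47 genes, EdulChr47G00175220 was the most abundant, with 505, 492 and 409 TPM in cultivated and 884, 890.4 and 886 TPM in wild libraries, a log2 difference of -0.92 ± 0.06 (SE, limma BH-adjusted p = 2.07e-11). EdulChr47G00174320 had 185, 190.4 and 145 TPM against 449, 435 and 478 TPM, with a log2 difference of -1.39 ± 0.09 (SE, limma BH-adjusted p = 1.13e-11). EdulChr47G00174380 went the other way, with 300.4, 303 and 276 TPM against 165, 158 and 165 TPM, with a log2 difference of 0.84 ± 0.05 (SE, limma BH-adjusted p = 1.01e-12). The groups did not overlap in any of the 3.

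The shift was present in every cultivated library. Relative to the mean of the wild libraries, the median over EdulChr47 genes was -0.78, -0.80 and -0.96 (log2) in cultivated replicates 1, 2 and 3, where the median over all 25559 genes was 0.17, 0.19 and 0.05. In the wild libraries both lay within 0.02 of 0. Libraries of the later stages, which share no sample with the initial ones, showed it too: the EdulChr47 median was below that of every other prefix at middle, late and maturity, with values of -1.31, -0.53 and -0.62. The gap to the median of the other prefixes was close to -1 at initial, -0.77 at middle, -0.81 at late swelling and -0.87 at maturity, and -0.89, -0.79, -0.86 and -1.15 after median-of-ratios scaling. This prefix was singled out after its values were seen, so no test is given. What sets these genes apart was not tested.

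**Figure D4:**
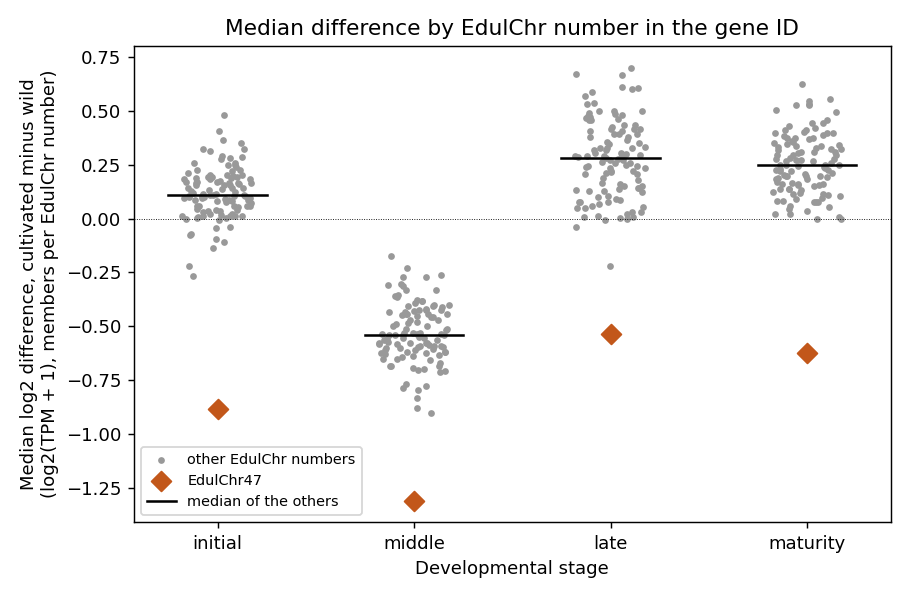
Median log2 difference, cultivated minus wild, of the genes with each EdulChr number in their ID (110 numbers with at least 100 genes) at the 4 stages. EdulChr47, the diamond, lies below all other numbers at each stage, at -0.89 at the initial stage where the median of the others (bar) is 0.11.

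Genes with neighbouring IDs shared a direction slightly more often than the genes at large. Where a gene was at least 2-fold lower in cultivated corms and the next ID was also among the 25559 genes, the next gene was lower in 27.3% of 3656 cases and higher in 17.1%. For genes at least 2-fold higher, the next was higher in 23.1% of 3701 cases and lower in 18.1%. The shares over all genes with an EdulChr prefix were 21.1% lower and 21.4% higher. Runs of at least 4 neighbouring IDs with a 2-fold difference in 1 direction numbered 48 toward wild and 24 toward cultivated corms.

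The longest run, chosen for its length, was 12 genes from EdulChr28G00111910 to EdulChr28G00112020, all at least 2-fold lower in cultivated corms as deposited and after scaling. Together they stood at 157 ± 11.4 TPM in cultivated and 4703 ± 173 TPM in wild corms (SD, n = 3). The most abundant, EdulChr28G00111950, had 27.7, 29.4 and 26.7 TPM in cultivated and 1137, 1044 and 1086 TPM in wild libraries, a log2 difference of -5.24 ± 0.06 (SE, limma BH-adjusted p = 9.63e-24). EdulChr28G00111930 had the widest gap, 2.35, 2.95 and 2.78 TPM against 392, 374 and 386 TPM, with a log2 difference of -6.71 ± 0.08 (SE, limma BH-adjusted p = 4.31e-24). EdulChr28G00111970 was the weakest, listed at 0 in the cultivated libraries and at 2.86, 1.42 and 2.12 TPM in the wild ones.

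At the middle stage all 12 genes of this run were again lower in cultivated corms, with sums of 266 ± 16.4 and 4253 ± 114 TPM. At late swelling the sums drew near each other, 1182 ± 24.1 TPM in cultivated and 1451 ± 30.7 TPM in wild corms (SD, n = 3). The typical gene of the run did not: 8 genes were lower and 1 higher. The median log2 difference over the 12 genes was -4.35, against -4.94 at initial swelling. At maturity the sums were 154 ± 10.1 and 373 ± 16.9 TPM (SD, n = 3), with 7 genes lower, 1 higher and a median of -1.84. The next 2 runs in length, 9 genes from EdulChr78G00260860 and 8 genes from EdulChr58G00203910, were also lower in cultivated corms, with sums of 32.03 ± 3.44 against 561 ± 18.9 TPM and 139 ± 6.05 against 1493 ± 79.2 TPM. The longest run toward cultivated corms was 7 genes from EdulChr68G00231170, with sums of 45.7 ± 3.65 against 7.61 ± 1.79 TPM (SD, n = 3), of which 6 were still called after scaling.

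IDs without the EdulChr prefix leaned to cultivated corms. Of 2415 such genes tested, 26.8% were at least 2-fold higher and 19.1% lower, against 21.1% and 20.2% of all genes tested, and their median log2 difference was 0.30, against 0.12. After scaling the median was 0.12, when that of the 25559 genes was -0.069.

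How far the difference between the origins was the same at other stages was asked next. The cultivated minus wild difference at initial swelling departed from the mean difference of the 3 later stages for 20064 of the 25559 genes by limma's test of that contrast (adjusted p under 0.05), against 77.6% of all genes tested. Against the middle stage alone the count was 21054 (81.1% of all genes tested), and 8598 genes were at least 2-fold more in favour of cultivated corms at initial than at middle, against 2415 the other way. Over all genes tested these shares were 32.7% and 9.42%. After median-of-ratios scaling the counts were 5227 and 4245, and the median of the initial minus middle difference went from 0.55 to 0.09 on the log2 scale, so most of the imbalance goes with the scaling. The typical size of the difference was smaller at initial swelling than at the 2 stages after it, with a median absolute log2 difference of 0.87, against 1.15 at middle and 1.12 at late swelling, and 0.78 at maturity. After scaling these were 0.799 at initial, 1.10 at middle, 0.996 at late swelling and 0.825 at maturity. The order of initial swelling and maturity thus depended on the scaling.

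As deposited, genes higher in wild corms at the start were mostly still higher at the next stage. Of the 5390 genes at least 2-fold lower in cultivated corms at initial swelling, 79.8% were lower at middle, 59.6% at late swelling and 33.3% at maturity, where 37.9, 22.3 and 12.2% of all genes tested were lower. They made up 42.0, 53.2 and 54.2% of the genes lower at those stages. Of the 5645 genes higher at initial swelling, 49.7% were higher at middle, 68.0% at late swelling and 56.7% at maturity, where 17.2, 31.9 and 27.7% of all genes tested were higher. They made up 60.2, 44.6 and 42.8% of the genes higher at those stages. The same direction at all 3 later stages was kept by 2100 of the higher and 1321 of the lower genes, and the opposite direction at all 3 was found for 39 and 18. Of all 27050 genes tested, 3124 were higher and 1867 lower in cultivated corms at all 3 later stages. These stage comparisons share no library. All of these shares and counts use the deposited values and were not repeated with scaled ones. The typical difference moves with the scaling at each later stage. Over the prefixes other than EdulChr47 the median log2 difference was -0.54 at middle, 0.28 at late swelling and 0.25 at maturity as deposited. With scaled values these medians were -0.29, -0.23 and -0.07. How far the shares change between stages because of the scaling was not tested.

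A smaller number of genes were called 2-fold different at the onset of swelling and at no later stage, as deposited. There were 688 genes at least 2-fold higher and 385 lower in cultivated corms at initial swelling with no 2-fold call at middle, late or maturity. They were taken from the 5645 higher and 5390 lower genes, and no share over all genes tested is given for them. A gene under the 2-fold limit at a later stage can still differ there, and the counts were not repeated after scaling. They were chosen on these comparisons, so the counts are a description.

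Next to EdulChr57G00201130, the largest changes against the later stages toward cultivated corms were in EdulChr27G00110080 and EdulChr6G00028990. EdulChr27G00110080 had 3777, 3460.5 and 3359 TPM in cultivated and 1237, 1217 and 1212 TPM in wild libraries at initial swelling, a log2 difference of 1.53 ± 0.19 (SE, limma BH-adjusted p = 1.95e-07). By the middle stage it stood at 7.14 ± 1.84 TPM in cultivated and 548 ± 19.7 TPM in wild corms (SD, n = 3). Its initial difference exceeded the mean later one by 8.82 ± 0.22 (SE, limma BH-adjusted p = 1.74e-18). EdulChr6G00028990 had 72.3, 65.9 and 58.6 TPM in cultivated and 0.44, 0.64 and 0.35 TPM in wild libraries at the start, and 0.600 ± 0.0854 and 6.28 ± 0.713 TPM at middle (SD, n = 3), a turn of 8.22 ± 0.13 (SE, limma BH-adjusted p = 1.40e-21). Both genes were higher in cultivated corms at initial swelling and in wild corms at each later stage.

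The largest changes the other way, with the gap toward wild corms widest at the start, were in EdulChr43G00163740, EdulChr18G00076740 and EdulChr73G00245870. EdulChr43G00163740, given above, fell in wild corms from 1039 ± 47.6 TPM to 65.3 ± 0.925 TPM at middle, where cultivated corms had 4.51 ± 0.326, and 12.3 ± 1.68 TPM at maturity (SD, n = 3), where cultivated corms had 8.86 ± 0.247 TPM. EdulChr18G00076740 had 115, 109 and 108 TPM in wild and 0.11, 0.17 and 0.05 TPM in cultivated initial libraries, and 2.73 ± 0.135 TPM in wild corms at middle (SD, n = 3), where each cultivated library was at 0. The first 2 were still higher in wild corms at middle, with log2 differences of -3.59 and -1.90. EdulChr73G00245870 had 102, 92.5 and 95.4 TPM in wild and 3.30, 3.93 and 0.54 TPM in cultivated initial libraries. At middle it stood at 0.743 ± 0.289 TPM in wild and 1.32 ± 0.475 TPM in cultivated corms (SD, n = 3). The initial minus the mean later difference of the 3 genes was -6.57 ± 0.09 (SE, limma BH-adjusted p = 1.84e-22), -5.86 ± 0.06 (SE, limma BH-adjusted p = 5.94e-24) and -5.68 ± 0.39 (SE, limma BH-adjusted p = 2.90e-11).

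EdulChr57G00201130, the largest difference toward cultivated corms at initial swelling, stood at 0, 0 and 0.3 TPM in cultivated and at 6.76, 445 and 509 TPM in wild libraries at late swelling, where the wild libraries were the higher ones. Its initial minus mean later difference was 13.09 ± 1.56 (SE, limma BH-adjusted p = 1.90e-07). EdulChr85G00279670 was higher in cultivated corms at each stage, with log2 differences of 8.97, 1.75 and 2.78 at middle, late and maturity. EdulChr23G00094560 was too, with 6.86, 3.53 and 2.85.

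Other leading genes also kept their direction. EdulChr25G00102080 was far higher in wild corms at each stage, with log2 differences of -7.25, -10.89 and -9.60 at middle, late and maturity. EdulChr34G00135090 was higher in cultivated corms throughout, with 2.07, 2.43 and 0.87. EdulChr67G00227860 had log2 differences of -2.38 at initial swelling and of -7.93, -10.16 and -4.49 at the later stages, so that its initial gap was the narrowest.

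**Figure D5:**
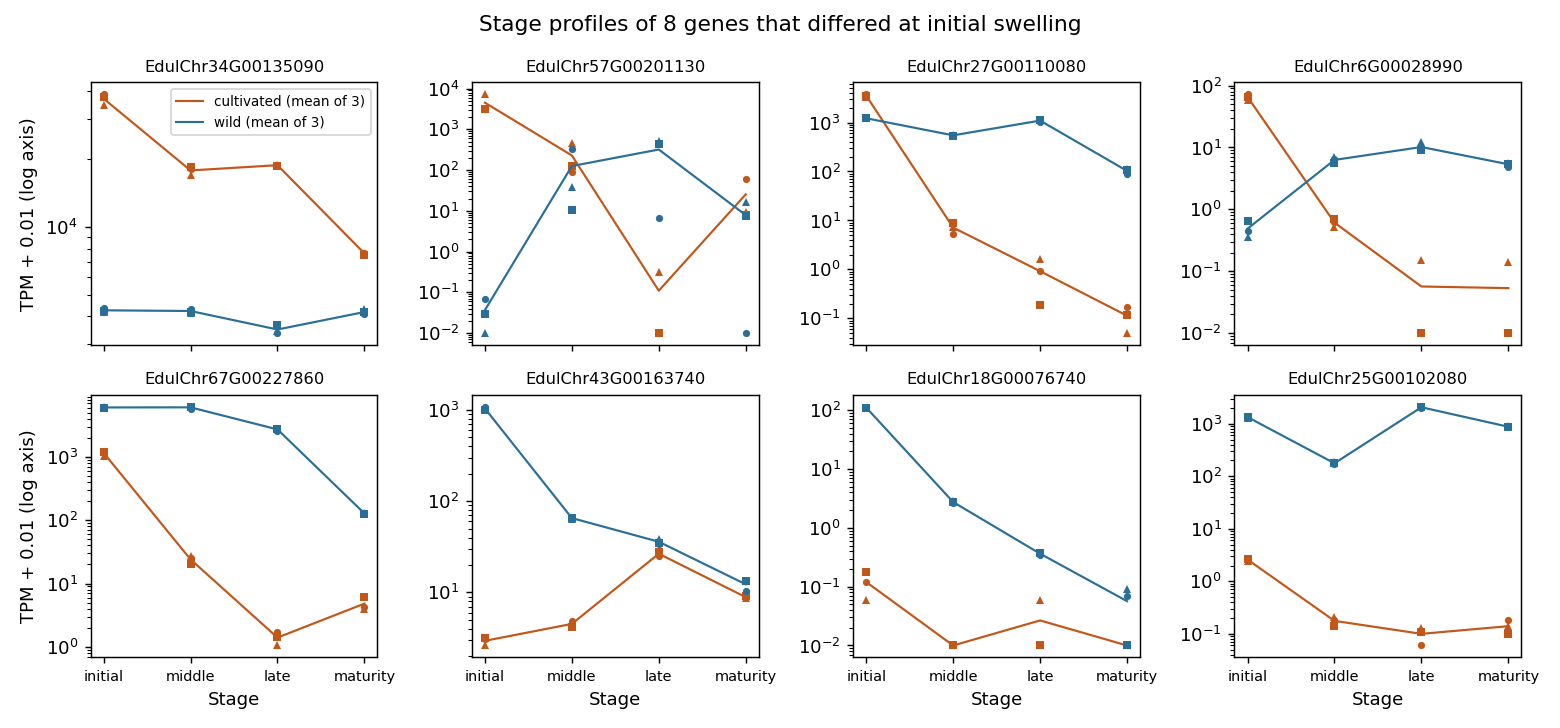
TPM + 0.01 on a log axis at the 4 stages for 8 genes that differed at initial swelling, in cultivated (orange) and wild (blue) corms, with points for libraries and lines through the mean of 3. EdulChr27G00110080 and EdulChr6G00028990 start higher in cultivated corms and cross below the wild line by the middle stage, while EdulChr25G00102080 stays higher in wild corms.

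Lists of genes made from differences between later groups, from values as deposited, were then read in the initial libraries. The compared means used no initial library, but the error of each gene was estimated over all 24 libraries. Of 3124 genes at least 2-fold higher in cultivated corms at middle, late and maturity, 2111 were also at least 2-fold higher at initial swelling and 19 lower (67.6% and 0.608%, against 21.1% and 20.2% of all genes tested), with a median log2 difference of 1.35. Of 1867 genes lower in cultivated corms at all 3 later stages, 1325 were lower and 39 higher at initial swelling, with a median of -1.67. Differences that lasted through the later stages were thus mostly present when swelling began.

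Genes that rose from middle swelling to maturity in wild corms leaned to cultivated corms at initial swelling. Of 1198 such genes, 429 were at least 2-fold higher and 272 lower in cultivated corms (35.8% and 22.7%), with a median log2 difference of 0.35. Of 13221 genes that fell over the same period in wild corms, 1665 were higher and 3661 lower (12.6% and 27.7%), with a median of -0.26. Genes that rose from middle to maturity in cultivated corms went the other way: of 427, 78 were higher and 138 lower (18.3% and 32.3%), with a median of -0.23. Of 1519 that fell in cultivated corms, 475 were higher and 354 lower (31.3% and 23.3%), with a median of 0.24. The median over all genes tested was 0.12. Read after scaling, with the lists themselves kept as deposited, these 4 medians were 0.17, -0.43, -0.42 and 0.028. Each moved by about the same amount as the median of all genes. In wild corms novel1867 alone went from a mean of 76352 TPM at middle to 246502 TPM at maturity. How far the lists of rising and falling genes go with such shifts in a fixed total was not tested.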

How the data were processed

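The authors deposited 1 table of TPM values with 24 library columns, per the file headers. Each column was matched to its sample by origin, stage and number in the title, and no column was left over. Per the submitters' processing notes the tools were HISAT2 2.0.4, StringTie 2.1.6 and DESeq2, with no step stated for each. The sources used here do not give the genome build, annotation or filters. TPM carries no depth, so precision was taken from replicate spread.

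Values as log2(TPM + 1) were fitted by linear models (R 4.3.3, limma 3.58.1, eBayes with a mean-variance trend), with 8 group means over 24 libraries. The 27050 genes tested reached 1 TPM in 3 or more of the 24, and p-values were adjusted over all of them. Fold changes on this scale understate low genes. Single values were tested by exact permutation. Alternatives were another pseudocount (0.1), no filter, a mean of at least 5 TPM, scaling, removal of the 10 highest genes, a replicate block, the 6 libraries alone, and each library left out. The fit was tested on simulated data.

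Named genes were, at adjusted p under 0.05, a mean of 10 TPM or more in the higher origin and no overlap, the 8 largest differences each way and the 3 largest changes against later stages each way; also the 5 highest of each origin, the 3 most abundant at least 4-fold different each way, the 3 steadiest, and the 3 highest listed at 0. Genes of prefixes, runs and the set high in 1 library were chosen after their values were seen. Members and lists were chosen with earlier results of these data known. Lists by function were not used, since IDs are not paired with names.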

Additional observations from a re-analysis of the deposited data

Results flagged for a closer look

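The difference between cultivated and wild corms at initial swelling was not that of the later stages for 20064 genes (against the mean of middle, late and maturity) and for 21054 genes (against middle alone), by limma's tests of these contrasts at an adjusted p under 0.05. Among the named genes, the values below are the log2 difference at initial swelling minus the mean later difference. Each passed that test unless stated. They are on the log2(TPM + 1) scale, and those of genes at or near 0 in one origin move with the pseudocount.

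Many of the named genes were chosen for a large difference, level or change at initial swelling, so the sign of these values is in part set by the choice. Among those higher in cultivated corms the value was 13.09 for EdulChr57G00201130, 8.82 for EdulChr27G00110080 and 8.22 for EdulChr6G00028990. In the EdulChr2 genes it was 5.07 for EdulChr2G00010280, 6.44 for EdulChr2G00010520, 6.65 for EdulChr2G00009750 and 6.39 for EdulChr2G00009710. In EdulChr2G00010320 it was 4.17 and did not pass (limma BH-adjusted p = 0.0564). It was 3.92 for EdulChr85G00279670 and 3.40 for EdulChr23G00094560. The abundant transcripts had 1.33 for EdulChr34G00135090, 1.61 for EdulChr8G00035780, 3.56 for novel2327, 3.67 for novel3419 and 1.32 for novel3652. Of genes listed at 0 in wild initial corms, novel776 had 1.19, EdulChr27G00109610 had 4.19, and EdulChr29G00116390, the exception, had -0.37.

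Genes higher in wild corms at initial swelling with a wider gap there than later had negative values. They were -6.57 for EdulChr43G00163740, -5.86 for EdulChr18G00076740 and -5.68 for EdulChr73G00245870. EdulChr19G00079250 had -4.12, EdulChr21G00085600 had -4.31, EdulChr23G00093850 had -2.78 and EdulChr86G00281820 had -2.12. EdulChr14G00061010 had -1.65 and did not pass (limma BH-adjusted p = 0.0620). The feature novel1867 had -2.47 and novel1789 had -2.68. Of genes listed at 0 in cultivated initial corms, novel2799 had -2.86, EdulChr83G00271180 had -2.20 and EdulChr85G00278380 had -1.92.

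Genes higher in wild corms whose gap was narrower at initial swelling than on average later had positive values. They were EdulChr67G00227860 with 5.15, EdulChr93G00296730 with 1.85, EdulChr66G00225550 with 1.75, EdulChr74G00248370 with 0.80 and EdulChr25G00102080 with 0.70. The genes at equal level at initial swelling had 0.29 for EdulChr16G00071610, 0.79 for EdulChr62G00215560 and 0.28 for EdulChr78G00262660.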

How the results depend on the processing

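The 11035 genes at least 2-fold different between cultivated and wild corms stayed within 1.5 times that number under every alternative but 3. They were 7097 (3601 higher, 3496 lower) at a mean of at least 5 TPM, 3354 at 4-fold and 22371 by adjusted p alone. The counts that departed from later stages were 13101 and 13528 at a mean of at least 5 TPM, again among fewer genes tested. Leaving out a library kept 10750 to 10837 of the 11035 genes, and scaling kept 9358. The median difference was -0.069 after scaling, 0.11 to 0.18 with a library left out, and 0.28 without the genes high in cultivated replicate 3, an alternative added after seeing the data. The excess of genes at 1 TPM in cultivated corms was reversed to -467 at 0.1 TPM and -288 after scaling, and the cause was not tested. Genes listed at 0 in wild corms numbered 175 with under 0.1 TPM allowed, 35 with at least 5 TPM asked of the other origin, and 114 to 151 with a library left out. In cultivated corms these were 326, 67 and 215 to 258. The later-stage lists were kept as deposited under the alternatives. Their medians became 1.08 (higher), -1.83 (lower), 0.17 and -0.43 (rising and falling in wild), -0.42 and 0.028 (rising and falling in cultivated) after scaling, and 1.68, -1.88 and 0.49 for the first 3 with a pseudocount of 0.1. The median of EdulChr47 genes was -0.98 after scaling and -1.01 at a mean of at least 5 TPM. For IDs without the prefix the median was 0.12 after scaling and 0.42 with that pseudocount.

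Same-numbered libraries of the 2 origins did not deviate together across genes (correlations of -0.01, -0.02 and -0.05). The labels do not say whether the numbers pair libraries, and these values cannot exclude a shared effect that is small or limited to few genes. A replicate block gave 11034 genes, all among the 11035, and 20069 and 21043 genes departing from later stages. Among values of named genes under the alternatives 605 kept direction and side of the threshold, 6 became significant (the 3 steady genes, after scaling and without the genes high in cultivated replicate 3) and none reversed.

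Depth is unknown, the labels give 1 group of each origin at each stage, and reads were mapped to a reference whose origin is not given here. Line, site, batch and mapping therefore cannot be told apart from origin.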
